A study of Mus musculus with 4 samples.

Results

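The occupancy of RYBP was examined at 10 genes encoding cardiac transcription factors, Hand1, Hand2, Tbx1, Tbx2, Tbx5, Tbx20, Isl1, Nkx2-5, Mef2c and Myocd. They were taken from 22208 protein-coding gene symbols of the mouse GENCODE annotation on the build mm9, and all 10 were found in it. They had been listed by name as regulators of the cardiac fate that SCL (TAL1), the master regulator of blood, holds down in mesoderm. A locus was the gene body plus 5 kb upstream, and a peak or region counted when it shared at least 1 bp with it.

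The 2 ChIP-seq replicates came from independent differentiations of wild-type embryonic stem cells of the C57Bl/6 X Sv129 background, from which FLK1+ mesoderm was taken out of embryoid bodies at day 3.75. Embryoid bodies are aggregates of differentiating embryonic stem cells, and FLK1 is the surface receptor used to sort mesoderm that can make blood, endothelium and heart. The precipitating antibody was raised against DEDAF, which is another name of RYBP, although the description of the design names SCL as the target, adds that the sorted cells lacked PDGFRa, and the methods of the study give a later day. A further 2 samples were inputs, which had no processed file and were not analysed here. The series has 1 genotype and 1 stage, so no condition could be compared. Peak lists hold no expression, so the identity of the sorted cells could not be checked from them.

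RYBP is a subunit of non-canonical Polycomb repressive complex 1, which attaches ubiquitin to histone H2A and is found mainly at CpG-rich promoters. Polycomb complexes keep developmental regulators quiet in cells that do not use them, often across broad stretches of chromatin at genes encoding transcription factors. The cardiac factors studied here act together in the embryo. HAND, T-box, NKX and MEF2 proteins and the cofactor myocardin build the heart tube and its chambers, and ISL1 marks the progenitors that are added to it later.

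The sequences in which the loci differ are given first. Each is 300 bases of the mm9 reference, read 5′ to 3′, with every CpG dinucleotide in capitals. The first 5 end at the base before the most 5′ annotated start site, and the last is the centre of the 1 region found at Mef2c. Over all genes the median was 10 CpG in the same 300 bases, with 3 at the lower quartile and 20 at the upper. Hand2 (16 CpG), Isl1 (41 CpG) and Tbx5 (0 CpG) are shown because their starts lay under peaks of both replicates with very different CpG content. Myocd (21 CpG) is shown as a start with a narrow peak, and Mef2c (2 CpG) as the start without one. The intronic region of Mef2c (13 CpG) is shown because it was the sole region of that gene.
Hand2, chr8:59799480-59799779, plus strand: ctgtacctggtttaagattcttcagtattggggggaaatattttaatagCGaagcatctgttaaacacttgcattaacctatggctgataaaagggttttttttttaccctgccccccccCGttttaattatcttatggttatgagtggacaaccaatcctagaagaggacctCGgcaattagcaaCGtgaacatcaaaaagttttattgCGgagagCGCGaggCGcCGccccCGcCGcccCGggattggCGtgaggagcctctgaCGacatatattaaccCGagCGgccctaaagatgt
Isl1, chr13:117099897-117100196, minus strand: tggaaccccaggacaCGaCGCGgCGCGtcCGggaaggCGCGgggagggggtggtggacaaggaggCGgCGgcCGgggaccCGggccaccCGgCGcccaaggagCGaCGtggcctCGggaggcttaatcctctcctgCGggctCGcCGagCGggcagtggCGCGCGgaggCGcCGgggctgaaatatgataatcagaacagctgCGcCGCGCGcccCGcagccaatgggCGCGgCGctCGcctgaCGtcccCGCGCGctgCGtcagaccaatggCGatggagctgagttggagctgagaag
Tbx5, chr5:120284372-120284671, plus strand: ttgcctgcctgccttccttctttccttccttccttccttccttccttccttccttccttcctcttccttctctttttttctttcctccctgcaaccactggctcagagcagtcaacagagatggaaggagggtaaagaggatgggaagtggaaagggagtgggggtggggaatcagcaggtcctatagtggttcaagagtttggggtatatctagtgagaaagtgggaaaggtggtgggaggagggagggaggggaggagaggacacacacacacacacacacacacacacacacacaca
Myocd, chr11:65083492-65083791, minus strand: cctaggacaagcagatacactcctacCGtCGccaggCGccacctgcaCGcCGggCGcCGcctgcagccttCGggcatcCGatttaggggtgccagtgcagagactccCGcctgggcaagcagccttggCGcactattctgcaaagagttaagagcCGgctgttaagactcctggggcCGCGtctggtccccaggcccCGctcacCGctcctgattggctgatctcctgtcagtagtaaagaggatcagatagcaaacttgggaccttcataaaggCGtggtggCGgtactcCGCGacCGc
Mef2c start, chr13:83642733-83643032, plus strand: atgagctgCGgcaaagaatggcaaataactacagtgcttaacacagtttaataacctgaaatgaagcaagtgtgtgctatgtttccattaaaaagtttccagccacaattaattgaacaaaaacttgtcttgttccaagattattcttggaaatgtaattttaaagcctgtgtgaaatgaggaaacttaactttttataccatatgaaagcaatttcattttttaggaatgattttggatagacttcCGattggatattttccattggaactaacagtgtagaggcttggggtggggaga
Mef2c intronic region, chr13:83657209-83657508, plus strand: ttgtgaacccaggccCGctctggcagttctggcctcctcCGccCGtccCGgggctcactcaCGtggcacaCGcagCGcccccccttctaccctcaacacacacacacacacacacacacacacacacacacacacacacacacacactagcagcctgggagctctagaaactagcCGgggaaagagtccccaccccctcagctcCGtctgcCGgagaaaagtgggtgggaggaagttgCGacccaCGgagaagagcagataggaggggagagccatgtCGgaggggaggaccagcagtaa
All 300 bases shown for Hand2, Isl1 and Tbx5 lay under peaks of both replicates. At Myocd all 300 lay under the replicate 2 peak and 93 under the replicate 1 peak. The Mef2c start had 0 bases under a peak in either replicate. The Mef2c intronic stretch was covered in replicate 2 alone and carried an uninterrupted AC repeat of 52 bases, and the Tbx5 stretch carried one of 36 bases.

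RYBP was found near the start sites of 9 of the 10 genes, and Mef2c was the exception. A merged region, which is the union of overlapping peaks of the replicates, was present at all 10 loci, where 57.1% of all genes had one. A region found in both replicates was present at 9 of the 10 loci, against 38.9% of all genes. A region lay within 2.5 kb of an annotated coding start at 9 of the 10 genes, against 53.4% of all genes, and the same 9 had a region found in both replicates there, against 36.8%. Taken singly, replicate 1 had a peak at 9 of the 10 loci (43.9% of all genes) and replicate 2 at all 10 (53.6%). Within 2.5 kb of a start each replicate had a peak at 9 of the 10, where 40.4% of all genes had one in replicate 1 and 50.5% in replicate 2. Because earlier results of these data were known when the genes were listed, these counts are a description and carry no test.

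The 10 loci held 19 merged regions. Of these, 15 were found in both replicates, a share of 78.9% (exact binomial 95% interval 54.4% to 93.9%, counting error only), where the share over all 22409 merged regions was 44.2%. A further 2 were found in replicate 1 alone (Tbx5 and Isl1) and 2 in replicate 2 alone (Tbx5 and Mef2c). These unshared regions were 530 to 772 bp wide, where the median over all merged regions was 766 bp. The shares were not matched for width, and how far width bears on them was not tested. The interval counts each region singly, although some genes held several. All 9 regions that covered a start site were found in both replicates. Sharing was also common near starts over all genes. There 11856 genes had a merged region within 2.5 kb of a start, and 8165 had one found in both replicates. The peaks were often broad. At the member loci 7 of 18 replicate 1 peaks and 6 of 20 replicate 2 peaks were at least 4 kb wide, where 2.89% of all replicate 1 peaks and 2.24% of all replicate 2 peaks were.

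**Figure D1:**
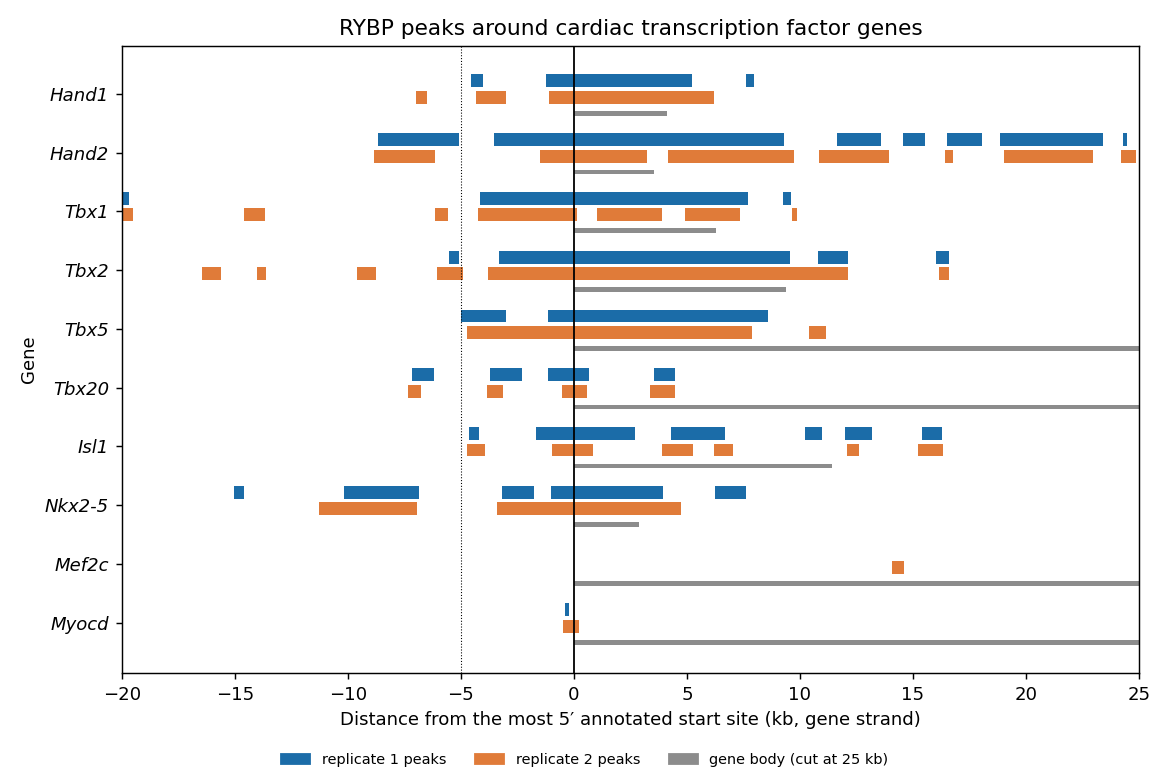
RYBP peaks of replicate 1 (blue) and replicate 2 (orange) from 20 kb before to 25 kb after the most 5′ annotated start site of each gene, with the gene body in grey and the 5 kb upstream limit dotted. Peaks span most of the drawn gene body at Hand1, Hand2, Tbx1, Tbx2 and Nkx2-5, whereas Myocd has a narrow peak at its start and Mef2c a single replicate 2 peak 14061 bp into the gene.

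The HAND genes encode basic helix-loop-helix factors of the forming ventricles and of the lateral and extraembryonic mesoderm. Hand1 (ENSMUSG00000037335.7, minus strand, chromosome 11 from 57642207 to 57646320) lay whole within a merged region of 7452 bp from 57640112 to 57647563. The peak there was 6485 bp wide in replicate 1, with a fold enrichment of 4.23, and 7326 bp wide in replicate 2, with one of 4.68. Fold enrichment is the ratio of the pile-up of fragments to the local background, as the peak caller of the authors gave it for the whole peak. Both peaks covered the pair of annotated starts, which are 671 bp apart, and 100% of the 648 coding bases. A separate upstream region, from -4569 to -3011 bp relative to the start, had values of 3.36 and 4.78.

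Hand2 (ENSMUSG00000038193.3, plus strand, chromosome 8 from 59799780 to 59803314) lay within a merged region of 13284 bp from 59796248 to 59809531. In replicate 1 this was 1 peak of 12841 bp with a value of 3.69. In replicate 2 the same stretch was split, and the peak over the gene was 4710 bp wide, reached 6.31 and had the −log10 q 10.9. The fold enrichment of the replicates thus differed more at Hand2 than at any other of the 9 genes with peaks in both. The replicate 1 peak ranked at percentile 72.3 of its list by fold enrichment and at 81.7 among chromosome 8 peaks, and the replicate 2 peak at 98.5 and 98.8. How far the difference in called width bears on these values was not tested.

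Regions went on beyond the locus of Hand2. When merged regions were joined over gaps of up to 5 kb, a measure chosen after the data had been seen, 9 regions formed a chain of 36269 bp from -8854 to 27414 bp relative to the Hand2 start, of which 28660 bp were covered. The chain passed over the start of 5033428I22Rik, annotated as a lincRNA. With regions found in both replicates it still held 6 regions over 33704 bp. It was the longest chain among the 9 genes, and Tbx2 had the next longest with 33089 bp. The Tbx2 chain was 22674 bp with regions found in both replicates. Chains were not measured at other genes, so whether such lengths are unusual was not tested.

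The 4 T-box genes fell into compact loci that were covered almost throughout and long loci covered mainly at the start. Tbx1, a regulator of the pharyngeal region and outflow tract (ENSMUSG00000009097.8, minus strand, chromosome 16 from 18581806 to 18588113), lay whole within a merged region of 11967 bp from 18580404 to 18592370. Replicate 1 had a single peak of 11845 bp with a fold enrichment of 4.36. Replicate 2 had 3 peaks of 2454, 2871 and 4387 bp over the same stretch, with fold enrichments of 4.80, 4.55 and 4.90. The 3 values of replicate 2 were thus close to each other, and all lay above that of replicate 1. By rank within its own list the order was reversed. The replicate 1 peak stood at percentile 91.7, and the replicate 2 peaks at 87.9, 83.3 and 89.4. The replicates also differed in continuity. The region also covered the start of 4930588K23Rik, a noncoding transcript on the opposite strand 3972 bp from that of Tbx1, and peaks cannot be assigned to one of these starts.

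Tbx2, which represses the chamber programme where the heart does not form chambers (ENSMUSG00000000093.6, plus strand, chromosome 11 from 85646053 to 85655450), had the widest region of the set, 15952 bp from 85642251 to 85658202. The replicate 1 peak over its start was 12866 bp wide and reached 4.03, and the replicate 2 peak was 15952 bp wide and reached 4.99. They covered 100% of its coding bases in each replicate. The start of the lincRNA 2610027K06Rik lay 328 bp away on the opposite strand, under the same region. A weaker region at the upstream limit, from 85639997 to 85641170, had values of 2.69 and 3.53.

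Tbx5, needed for the early heart and the forelimb (ENSMUSG00000018263.8, plus strand, chromosome 5 from 120284672 to 120335227), had a region of 13558 bp from 120279701 to 120293258 over its start and the beginning of the gene. In replicate 1 it was made of peaks of 1969 bp (3.90) and 9743 bp (3.62), and in replicate 2 it was 1 peak of 12582 bp (3.95). It reached 4971 bp upstream of the start and 8586 bp into the gene. The remaining regions within the locus of Tbx5 were not shared. An intronic region from 120317121 to 120317885 was found in replicate 1 alone (2.92), and a region from 120295075 to 120295846, with 52 coding bases, in replicate 2 alone (3.27). Outside the 5 kb limit a region of 7497 bp, from -35554 to -28058 bp relative to the start, was found in both replicates and was named after its values were seen. It reached 3.95 in replicate 1 and 4.20 in replicate 2, above every peak within the locus in the same replicate.

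Tbx20, a factor of chamber growth (ENSMUSG00000031965.7, minus strand, chromosome 9 from 24527648 to 24578746), had 3 separate regions of 1123 to 1831 bp, all found in both replicates. The region over the start, from 24578076 to 24579906, reached 4.58 in replicate 1 and 3.74 in replicate 2. The upstream region had 3.46 and 3.95, so that the strongest peak was not the same one in both replicates. The region inside the gene, from 24574255 to 24575377, had 3.34 and 3.49 and covered 257 coding bases.

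Isl1 encodes a LIM homeodomain factor of late-added cardiac progenitors, and Nkx2-5 a homeodomain factor of committed ones. Isl1 (ENSMUSG00000042258.5, minus strand, chromosome 13 from 117088478 to 117099896) had 4 regions, of which the one over the start spanned 4362 bp from 117097202 to 117101563. The replicate 1 peak there was 4362 bp wide and reached 4.67, and the replicate 2 peak was 1784 bp wide and reached 4.99. Another shared region, within the gene, from 117092842 to 117095988, had values of 3.28 and 4.41, and a shared upstream region had 2.98 and 3.26. The region in the 3′ untranslated part was weak (2.96) and found in replicate 1 alone. Fold enrichment was therefore highest at the start of Isl1 in both replicates.

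Nkx2-5 (ENSMUSG00000015579.4, minus strand, chromosome 17 from 26975609 to 26978510) lay whole within a region of 8143 bp from 26973766 to 26981908. Replicate 1 had peaks of 4958 bp (4.41) and 1423 bp (3.96) there, and replicate 2 had 1 peak of 8143 bp (5.70). Another region lay outside the 5 kb limit and was named after its values were seen. It ran from -11257 to -6865 bp relative to the start. Its fold enrichment was 5.70 in replicate 1, above the peak over the gene, and 4.60 in replicate 2, below it.

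Mef2c and Myocd stood at the low end in covered length. Mef2c encodes a MADS-box factor that serves heart, skeletal muscle and blood vessels. In its locus of 168652 bp (ENSMUSG00000005583.8, plus strand, gene body on chromosome 13 from 83643033 to 83806684), replicate 1 had 0 peaks and replicate 2 had 1. That peak, of 530 bp from 83657094 to 83657623, lay in an intron. Its fold enrichment, 3.32, was at percentile 31.3 of the replicate 2 list, and its −log10 q, 1.55, at percentile 18.3. The merged region lay 14061 bp from the upstream start and 6353 bp from the other annotated start. The nearest replicate 1 peak was 189335 bp from the closer of these starts.

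Myocd encodes myocardin, a coactivator of smooth and cardiac muscle genes (ENSMUSG00000020542.11, minus strand, chromosome 11 from 64990063 to 65083491). It had 1 region of 694 bp, from 65083280 to 65083973, over the cluster of 3 upstream starts. The replicate 1 peak was 202 bp wide, reached 3.96 and lay 208 bp before the most 5′ start. The replicate 2 peak was 694 bp wide, reached 3.84 and covered that start. By fold enrichment the replicate 1 peak ranked at percentile 82.6 of its list and the replicate 2 peak at 61.6. The other annotated starts, 51430 and 64522 bp into the gene, had no region within 2.5 kb. Of the coding bases of Mef2c and Myocd, 0 lay under a region.

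The genes were next ordered by their highest fold enrichment. Each value is that of a whole peak, and in replicate 1 these peaks ran from 202 bp at Myocd to 12866 bp at Tbx2. How far peak width bears on the order was not tested. The mean of the replicates was 5.06 ± 0.914 for Nkx2-5, 4.83 ± 0.225 for Isl1 and 4.63 ± 0.384 for Tbx1 (SD, n = 2 for each). Hand2 stood between Nkx2-5 and Isl1 with values of 3.69 and 6.31 (SD 1.85). The mean was 4.51 ± 0.677 for Tbx2, 4.50 ± 0.394 for Hand1 and 4.26 ± 0.446 for Tbx20. Tbx5 (3.92 ± 0.0382) and Myocd (3.90 ± 0.0856) followed, and Mef2c had the replicate 2 value of 3.32 alone. The replicate ranges of neighbouring genes overlapped at every step down to Myocd, so that no neighbours in this order differed beyond the spread between replicates. Among genes further apart, both values of Tbx5 and Myocd lay below both values of Nkx2-5, Isl1, Tbx1, Tbx2 and Hand1. The margin could be small, as between 4.03 at Tbx2 and 3.96 at Myocd in replicate 1. Whether these genes differed beyond the spread between replicates was not tested. Hand2 had the lowest maximum of 9 genes in replicate 1 and the highest of 10 in replicate 2.

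The maxima ran from 3.69 to 4.67 in replicate 1 and from 3.32 to 6.31 in replicate 2. The median was 4.23 over the 9 genes with a replicate 1 peak and 4.84 over the 10 with a replicate 2 peak. Over all genes with a peak the medians were 3.53 (9744 genes) and 3.92 (11913 genes). In replicate 1 all 9 genes lay above that median. In replicate 2 Myocd (percentile 46.2 among genes with a peak) and Mef2c (18.6) lay below it, and Tbx20 (51.6) and Tbx5 (52.0) close to it. The value was higher in replicate 2 at 7 of 9 genes, and the same count over all genes is not given here. The replicate 2 list as a whole also had the higher median fold enrichment over all peaks (3.60 against 3.29). By rank among genes with a peak in the same replicate, Nkx2-5, Hand2 and Tbx2 stood higher in replicate 2. The rest of the 9 genes stood lower. Tbx20 and Myocd had the higher value in replicate 1.

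**Figure D2:**
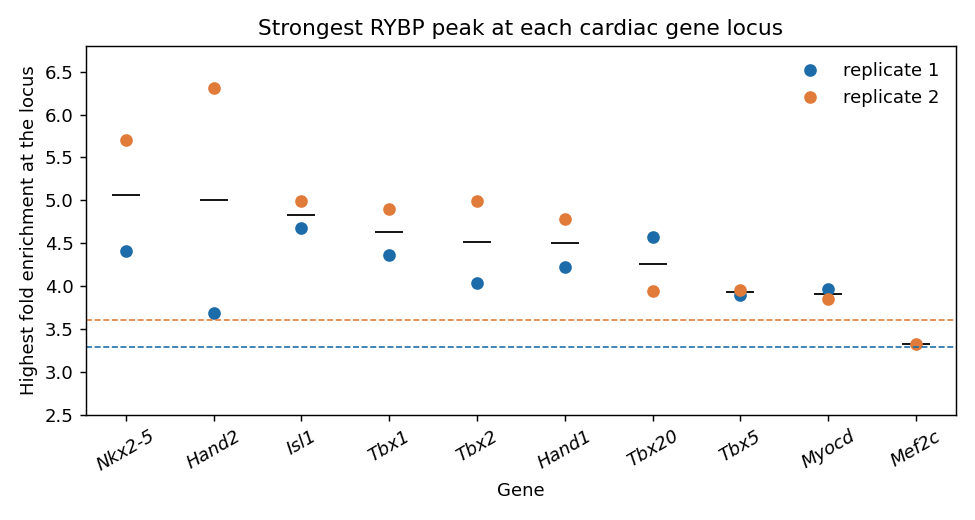
Highest fold enrichment of any peak at each locus in replicate 1 (blue) and replicate 2 (orange), with the mean as a bar and the median of all peaks of each replicate dashed (3.29 and 3.60). The points of Nkx2-5 and Hand2 lie far apart, those of Tbx5 and Myocd nearly coincide, and Mef2c has a replicate 2 point alone, below the replicate 2 median.

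The share of the locus covered ran from 0.314% at Mef2c to 93.4% at Tbx1. Merged regions covered at least 50% of the locus at 6 of the 10 genes, against 1.59% of all genes. They were Tbx1 (93.4%), Tbx2 (92.5%), Hand2 (82.8%), Nkx2-5 (79.7%), Hand1 (75.9%) and Isl1 (54.9%). These were also the 6 genes with loci under 20 kb, and among all 10912 genes with such short loci 3.05% reached 50%. Tbx5 (27.2%), Tbx20 (8.05%), Myocd (0.705%) and Mef2c (0.314%) had loci of 55556 bp or more.

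With replicate 1 peaks alone the count at 50% was 5 of 10, against 1.07% of all genes, and with replicate 2 peaks alone it was again 5 of 10, against 1.04%. Isl1 was the gene lost, with 48.0% in replicate 1 and 29.2% in replicate 2. Measured in base pairs, 73.0% of the covered sequence at the 10 loci lay under peaks of both replicates. The figure for all merged regions, not matched for width, was 42.6%. The share was highest at Tbx2 (95.4%), and at Isl1 it was 40.6% and at Myocd 29.1%.

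Absolute length gave another order. Merged regions covered 15095 bp at Tbx5, a length reached by 48 of the 22208 genes, 13318 bp at Tbx2 and 10565 bp at Tbx1. The amount was 9020 bp at Isl1, 7067 bp at Hand2, 6916 bp at Hand1, 6300 bp at Nkx2-5 and 4514 bp at Tbx20. At least 5 kb was covered at 7 of the 10 genes, against 3.66% of all genes. Myocd with 694 bp and Mef2c with 530 bp were near the middle of all genes, of which 41.8% and 46.6% had as much or more.

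**Figure D3:**
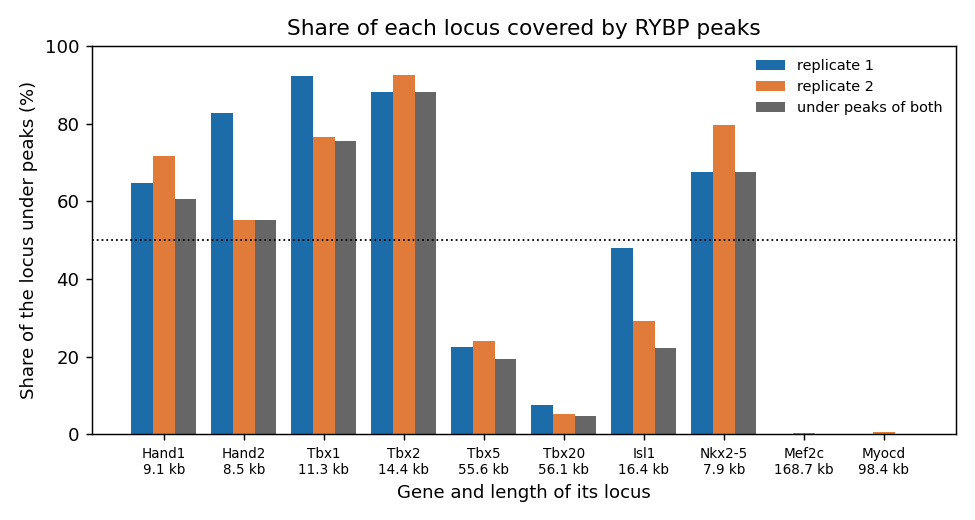
Share of each locus (gene body plus 5 kb upstream, length under the name) covered by replicate 1 peaks, by replicate 2 peaks and by peaks of both, in percent, with 50% dotted. Hand1, Hand2, Tbx1, Tbx2 and Nkx2-5 pass 50% in each replicate, Isl1 in neither, and Mef2c and Myocd stay below 1%.

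CpG content was then set against occupancy. The density of CpG dinucleotides within 500 bp on each side of the start was 9.40 per 100 bp at Tbx2, 7.70 at Isl1, 5.80 at Tbx20, 5.50 at Tbx1 and 5.30 at Hand2. It was 4.80 at Nkx2-5 and at Myocd. These 7 starts reached 3 CpG per 100 bp, the limit used here for CpG-rich, as did 57.5% of all genes. All 7 had a region within 2.5 kb that was found in both replicates, where 57.8% of genes with a CpG-rich start had one, and 81.3% had any merged region there. At least 50% of the locus was covered at 5 of the 7, against 2.39% of genes with a CpG-rich start.

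The other three starts were CpG-poor, with 2.60 at Hand1, 1.30 at Mef2c and 0.800 at Tbx5. The call of Hand1 depended on the window, since its start reached 4.20 within 250 bp and 3.30 within 1 kb, and its other annotated start had 3.10 within 500 bp. Hand1 and Tbx5 were nevertheless occupied in both replicates, where 8.38% of genes with a CpG-poor start were and 15.6% had any merged region near the start. At least 50% of the locus was covered at 0.498% of genes with a CpG-poor start, and of these genes at Hand1, whose call as CpG-poor held in the 500 bp window alone. The upstream start of Mef2c was CpG-poor and unoccupied. Its other annotated start had 3.40 CpG per 100 bp and had no region within 2.5 kb either. Over their whole length the wide regions ranged from 2.52 CpG per 100 bp at Tbx5 and 3.31 at Hand2 to 5.13 at Tbx1.

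Within every one of the 10 loci CpG density was higher under merged regions than in the rest of the locus, but this held for 97.7% of 12439 genes with enough sequence of both kinds and is not particular to these genes. Tbx1 had 5.56 CpG per 100 bp under regions and 0.269 elsewhere, Hand2 had 3.91 and 0.409, and Tbx5 had 2.56 and 1.22. The median under regions was 4.05 over the 10 genes and 6.17 over all genes with a region.

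**Figure D4:**
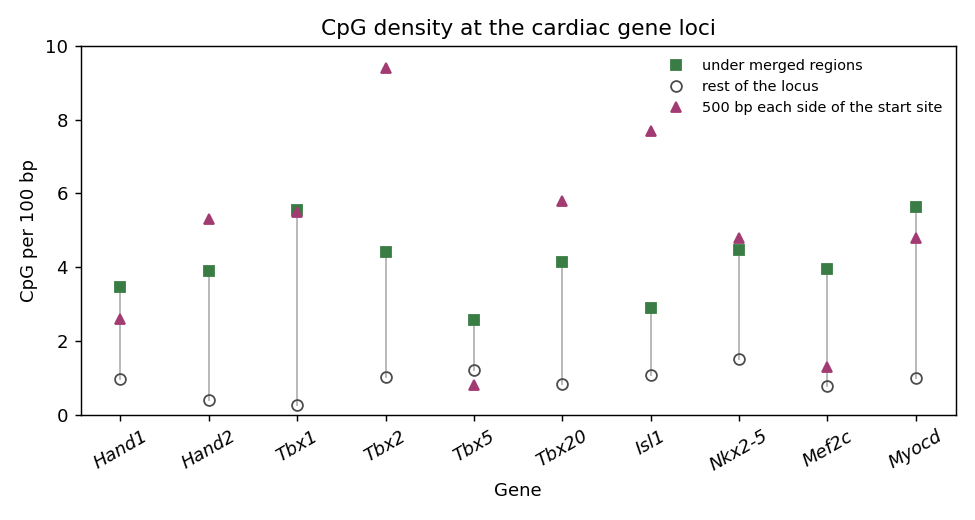
CpG dinucleotides per 100 bp at each gene, under merged RYBP regions (squares), in the rest of the locus (open circles) and within 500 bp on each side of the most 5′ start site (triangles). The squares lie above the circles at all 10 genes, and the start-site value runs from 0.800 at Tbx5 to 9.40 at Tbx2.

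Short motifs were counted on both strands in the 300 bases before the start. The E-box CANNTG, the letters bound by SCL and by HAND factors with their partners, was present at 8 of the 10 genes and at 70.2% of all genes. GATA was present at 7 of the 10 and at 58.1% of all genes. The T-box half-site AGGTGT was present at 0 of the 10 and at 13.7% of all genes. Tbx1 and Tbx5 lacked the E-box letters. These shares were close to the background, and a match of letters is not a bound site.

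Lists of related genes were described in the same way. Of 18 other cardiac regulators, all 18 had a region found in both replicates within 2.5 kb of a start, and 15 had a CpG-rich start. The share with such a region was 36.8% over all genes and 57.8% over genes with a CpG-rich start. Tbx3, a T-box repressor of the conduction system, had maxima of 5.02 and 8.50, the highest mean of the list. Tbx18 had 5.42 and 7.05, Mesp1 4.21 and 6.84, and Gata4 4.56 and 5.40. At 4 of the 18 at least 50% of the locus was covered, against 1.59% of all genes. The medians of the maxima were 3.94 in replicate 1 and 4.64 in replicate 2.

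Of 18 cardiac contractile and secreted or membrane genes, which act downstream in working muscle, 12 had a merged region at the locus and 4 had one found in both replicates. Over all genes the shares were 57.1% and 38.9%. At the start sites the counts were 10 and 3. The shares at start sites were 55.6% (exact 95% interval 30.8% to 78.5%) and 16.7% (3.58% to 41.4%), against 53.4% and 36.8% of all genes. Of the 18 starts 3 were CpG-rich, and among all genes with a CpG-poor start the shares were 15.6% and 8.38%. Pln, Ttn, Actc1, Nppb, Nppa and Myl2 had no region at the locus, although one lay within 2.5 kb of the start of Nppb, downstream of the gene body. Ryr2 had the highest mean, from maxima of 3.36 and 4.58. Coverage reached 50% of the locus at 1 of the 18, Myl7 (51.9%), against 1.59% of all genes.

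Of 16 listed blood regulators 15 could be measured, since Gfi1 is not annotated as coding in this release. At 10 of the 15 a region found in both replicates lay within 2.5 kb of a start, a share of 66.7% (exact 95% interval 38.4% to 88.2%), and 6 of the 15 starts were CpG-rich. For the 10 cardiac transcription factors the share was 90.0% (55.5% to 99.7%), and over all genes it was 36.8%. The intervals cover counting error only and do not compare lists that were chosen by name. The difference between these lists was not tested. Tal1, which encodes SCL, had the highest mean of the list, from 11.3 and 4.17, and Nfe2 and Gata1 had no region at the locus. Gata2 was the 1 blood regulator with at least 50% of its locus covered (93.4%), with maxima of 4.20 and 4.94. Over all genes 1.59% had such coverage.

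**Figure D5:**
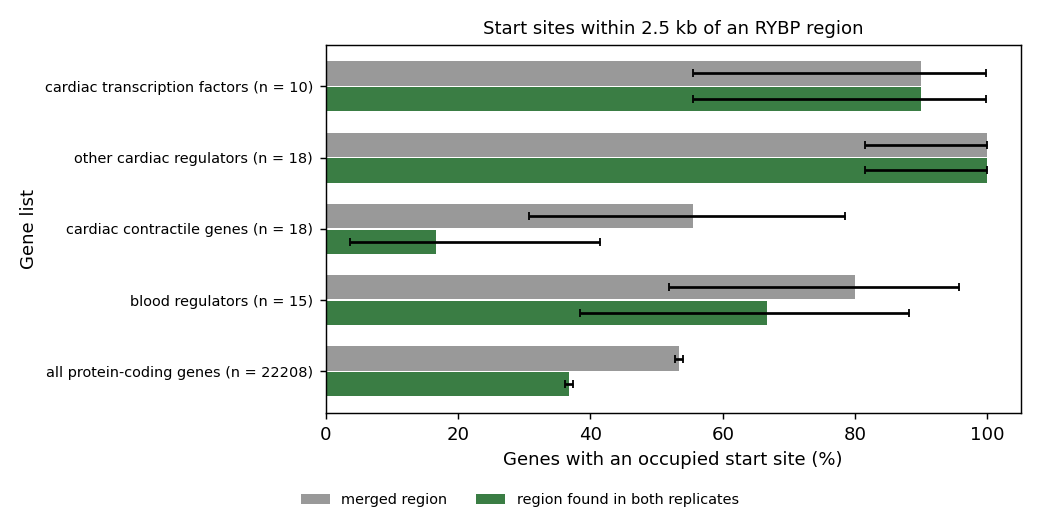
Share of genes in each list with a merged region (grey) or a region found in both replicates (green) within 2.5 kb of an annotated coding start, in percent, with exact binomial 95% intervals that cover counting error only. The contractile genes fall from 55.6% to 16.7% when both replicates are required, whereas the cardiac transcription factors stay at 90.0%. All protein-coding genes fall from 53.4% to 36.8%.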

How the data were processed

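RYBP ChIP-seq peaks of 2 replicates and the merged list of the authors were used. By the submitters' processing notes and the methods of the study, the authors aligned reads to mm9 with Bowtie 1.1.2b, removed duplicates and called broad peaks with MACS2 2.0.10. The files hold 1 peak list per replicate. The authors' fold enrichment is a linear ratio, fragment pile-up over local background. For each peak the authors deposited −log10 values of p and q, and a deposited score that is 10 times the −log10 q, rounded down. The merged list of 22409 regions was identical to the union of the replicate lists once the starts of replicate 2 were moved by 1 bp, so coordinates are uncertain by that much. Printed starts count from 1.

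The reference NCBIM37 (mm9) and GENCODE M1 gave loci, coding starts, CpG counts and sequences. Sequences printed are from that genome. Overlaps were counted with Python 3.11.15, numpy 2.4.6 and pandas 2.3.3, and intervals were computed with scipy 1.17.1. The interval code was checked on simulated data. Spi1 was matched as Sfpi1.

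The peak lists give no read counts, so no counting error could be given per peak. The study states read totals, with more mapped reads for replicate 1 than for replicate 2, which were not used here. With 1 group of 2 samples, described as independent differentiations, no test was made, and values are descriptions. The members and gene lists were chosen with earlier results of these data known. All 10 members were named by rule, and of the other lists genes with the highest mean maximum or no region. Gata2, Myl7, the outlying Tbx5 region, the chain measure, the 50% limit on coverage, the Nkx2-5 region outside the limit and the 20 kb limit were chosen after values were seen. Alternatives were other upstream lengths, start windows, thresholds, overlaps and CpG windows, regions in both replicates, and each replicate alone.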

Additional observations from a re-analysis of the deposited data

How the results depend on the processing

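No paired analysis was possible because the ChIP samples form 1 group and their inputs were not analysed here. The counts of 10 occupied loci and 9 occupied start sites moved by at most 1 gene under every alternative run, and the medians of the highest fold enrichment moved by less than the spread between replicates. The median covered length of 6991.5 bp was 3824.5 bp without upstream sequence and 9228 bp with 10 kb of it, as follows from the length counted, and from 5546 to 6484.5 bp when either replicate was left out. The share of regions found in both replicates was 52.6% when 50% of the region had to be covered in each, in place of 78.9%. The share over all merged regions given above holds for an overlap of at least 1 bp and cannot be set beside the 52.6%. The median CpG density at the starts, 5.05 per 100 bp, was 5.80 within 250 bp and 3.88 within 1 kb. Coverage of 50% of the locus, tried after the data had been seen, was kept by 5 genes in place of 6 with either replicate alone. No correction for depth was made, since the peak lists give no read counts.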
